A study of Homo sapiens with 16 samples.

Results

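The genes described here encode 9 growth factor receptors that are used to tell melanoma states apart: AXL, EGFR, NGFR, ERBB3, PDGFRB, MET, KIT, FGFR1 and EPHA2. They were taken by name, as the rows of these 9 symbols in the count tables of all 16 libraries, and all 9 were found among the 28278 gene rows. Bulk RNA-seq had been made from SKMEL28 and A375, human melanoma cell lines that share an activating mutation in BRAF. SKMEL28 gave 3 libraries each of clone 3 and clone 13 of a double knockout (DKO, genotype MITFKO, TFE3KO), 3 libraries labelled MITFKO from the parent line D2, and 1 wild-type library, numbered replicate 4. A375 gave 3 TFE3KO and 3 wild-type libraries. The TFE3 edits had been made with CRISPR-Cas9. Each DKO group is 1 clone, both clones carry the MITF edit of D2, and whether the A375 TFE3KO line is 1 clone is not given in the sources used here. The culture medium was RPMI for SKMEL28 but DMEM for A375, each with serum and antibiotics, so line and medium cannot be told apart. Replicates were separate flasks of the same clone or line, and every p-value therefore measures the spread between cultures.

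Total counts per library ran from 17320855 to 31269126. Levels are given as CPM, the gene's reads relative to the library total after scaling with trimmed-mean (TMM) factors, and differences are log2 fold changes with standard errors from edgeR's quasi-likelihood test. A gene is said to have risen or fallen only where the Benjamini-Hochberg adjusted p over all genes of the comparison was under 0.05. TFE3 counts were lower in the edited libraries, at 8.35, 8.77 and 11.8 CPM in DKO clone 3 and 43.6, 48.1 and 49.3 CPM in DKO clone 13, against 72.3, 74.3 and 79.7 CPM in the libraries labelled MITFKO. The SKMEL28 wild-type library had 45 CPM of TFE3, within the range of clone 13. A375 TFE3KO libraries had 10.9 to 12.2 CPM of TFE3 and A375 wild type 114 to 125 CPM. Clone 13 thus kept 62.4% of the TFE3 level of its parent and clone 3 kept 12.8%. MITF was not called lower in the libraries that carry its label, with a mean of 512 ± 30.8 CPM in the libraries labelled MITFKO (SD, n = 3) and 539 CPM in the wild-type library (adjusted p = 0.516, edgeR). In the DKO clones MITF was higher, at 802 ± 29.8 CPM in clone 3 and 894 ± 65.3 CPM in clone 13. Both rose over the libraries labelled MITFKO (adjusted p = 3.67e-08 and 9.77e-10). A count over a whole gene does not show a small edit and does not check the label. Replicate 2 of DKO clone 13 stood apart from its 2 mates, with a chi-square per gene of 21.9 and 23.3, where all other pairs of replicates had 3.2 to 7.14, and results that rest on it are given with and without it. The summed level of 7 melanocyte markers was 5164 to 13905 CPM in SKMEL28 libraries and 493 to 852 CPM in A375 libraries, where SOX10 and S100B passed 1 CPM and TYR was at 0.

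Most of these receptors are receptor tyrosine kinases: a secreted or membrane-bound ligand brings receptor chains together, the chains phosphorylate each other, and adaptor proteins carry the signal to the RAS-ERK and PI3K-AKT pathways. NGFR, the p75 neurotrophin receptor, has no kinase, and ERBB3 has a very weak one and signals through a partner such as ERBB2. In melanoma, AXL, EGFR and NGFR are known as markers of dedifferentiated cells that tolerate BRAF inhibitors, whereas ERBB3 and KIT belong to the melanocyte lineage. MITF and TFE3 are related factors that bind E-box sequences such as CACGTG and CATGTG.

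Upstream windows of 250 bases, taken from RefSeq on GRCh38.p14, were searched on both strands for the E-boxes CACGTG and CATGTG. They were also searched for the AP-1 motif TGANTCA. The last motif searched was the TEAD motif GGAATG. The 8 windows matched belong to AXL, EGFR, PDGFRB, MET, KIT and EPHA2. NGFR and ERBB3 had no window in the set, and FGFR1 was left out of the search. CACGTG was in none of the 8, and the windows before the first annotated starts of AXL, EGFR, PDGFRB, MET and KIT held none of the 4 motifs. Across all 35116 windows of the same length, 6.34% held CACGTG, 9.42% CATGTG, 6.57% TGANTCA and 11.9% GGAATG. The windows with a match, those of AXL, EGFR and EPHA2, are printed below. These genes fell in A375 TFE3KO cells, but so did MET, without a match, and NGFR, which was not searched. Capitals mark the motifs, read in the direction of the gene, and bases that GENCODE 29 annotates as exon are left out.
AXL, second start, chr19:41226505-41226754, plus strand: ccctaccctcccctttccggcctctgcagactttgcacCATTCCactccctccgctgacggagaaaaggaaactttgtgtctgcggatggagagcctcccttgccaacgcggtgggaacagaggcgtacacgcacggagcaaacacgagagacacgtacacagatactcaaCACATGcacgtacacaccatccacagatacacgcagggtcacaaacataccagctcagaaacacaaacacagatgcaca
EGFR, second start, chr7:55109589-55109722, plus strand: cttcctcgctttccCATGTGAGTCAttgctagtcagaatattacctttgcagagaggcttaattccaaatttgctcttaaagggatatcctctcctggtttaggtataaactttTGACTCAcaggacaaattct
EPHA2, chr1:16156088-16156319, minus strand: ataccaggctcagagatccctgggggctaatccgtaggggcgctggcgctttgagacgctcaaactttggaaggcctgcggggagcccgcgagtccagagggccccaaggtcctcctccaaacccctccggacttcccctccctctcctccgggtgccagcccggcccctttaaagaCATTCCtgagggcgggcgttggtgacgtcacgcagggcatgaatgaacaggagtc
The AXL window has GGAATG (as CATTCC) 212 bases and CATGTG (as CACATG) 79 bases before an internal start. In the EGFR window CATGTG and the AP-1 motif TGAGTCA share 2 bases, and a second AP-1 motif, TGACTCA, lies 136 bases before the internal start. GGAATG also occurs 114 bases before that start, in bases annotated as exon and not printed. The EPHA2 window has GGAATG (as CATTCC) 73 bases before its start. These matches are a description of letters, and the counts used here do not tell transcripts with different starts apart.

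Most of the receptors tested changed in A375 TFE3KO cells and in DKO clone 13. NGFR was called lower in A375 TFE3KO cells and higher in clone 13. That call in clone 13 was lost in some fits that left out a single replicate, as given below. In A375, 5 of the 8 receptors tested fell in TFE3KO cells and 2 rose (43.3% of all genes were called, 21.3% higher and 22.0% lower). In SKMEL28, 4 of 7 rose and 2 fell in DKO clone 13 against the libraries labelled MITFKO (40.7% of all genes called, 20.5% higher and 20.2% lower), and 3 of 7 rose and 0 fell in DKO clone 3 against the same libraries (35.9%, with 18.2% higher and 17.6% lower). EdgeR called 1 of 7, lower, between clone 13 and clone 3 (27.6%, with 14.3% higher and 13.4% lower). The TFE3 effect in SKMEL28, as the mean of both clones, minus that in A375 was called for 6 of 8 receptors, 5 higher and 1 lower (37.7% of all genes, 18.5% higher and 19.3% lower). Against the lone wild-type library, whose spread between cultures was not measured and is taken from the other groups, 5 of 7 rose and 0 fell in the DKO clones (52.9%, with 26.5% higher and 26.4% lower), and 2 of 7 rose and 0 fell in the libraries labelled MITFKO (48.6%, with 25.2% higher and 23.4% lower). EGFR, ERBB3, FGFR1 and EPHA2 were not called in the libraries labelled MITFKO over wild type (adjusted p = 0.143 to 0.895), and AXL had too few reads for a fold change. Shares near those of all genes, as in clone 3, are no result about the receptors. The median log2 fold change of the receptors tested was −0.80 in A375 TFE3KO over wild type, against 0.00 over all genes, and 0.25 and 0.35 in clones 13 and 3 over the libraries labelled MITFKO, against −0.02 and −0.01 over all genes. The comparisons of both clones share the libraries labelled MITFKO, and those against wild type share 1 library. The rises in SKMEL28 DKO cells include AXL, which passed the filter on low counts only through those cells. Against the libraries labelled MITFKO or wild type, AXL could thus be counted only as higher. The medians of clones 13 and 3 include it. KIT passed that filter in no comparison, and PDGFRB passed it only where A375 libraries entered. In A375 the summed level of 6 leukocyte and endothelium markers also differed, at 9.94 to 11.9 CPM in TFE3KO cells and 3.93 to 4.25 CPM in wild type. LYZ made up most of it, at 9.65 CPM in TFE3KO cells and 3.36 CPM in wild type, and its part in these results was not tested.

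**Figure D1:**
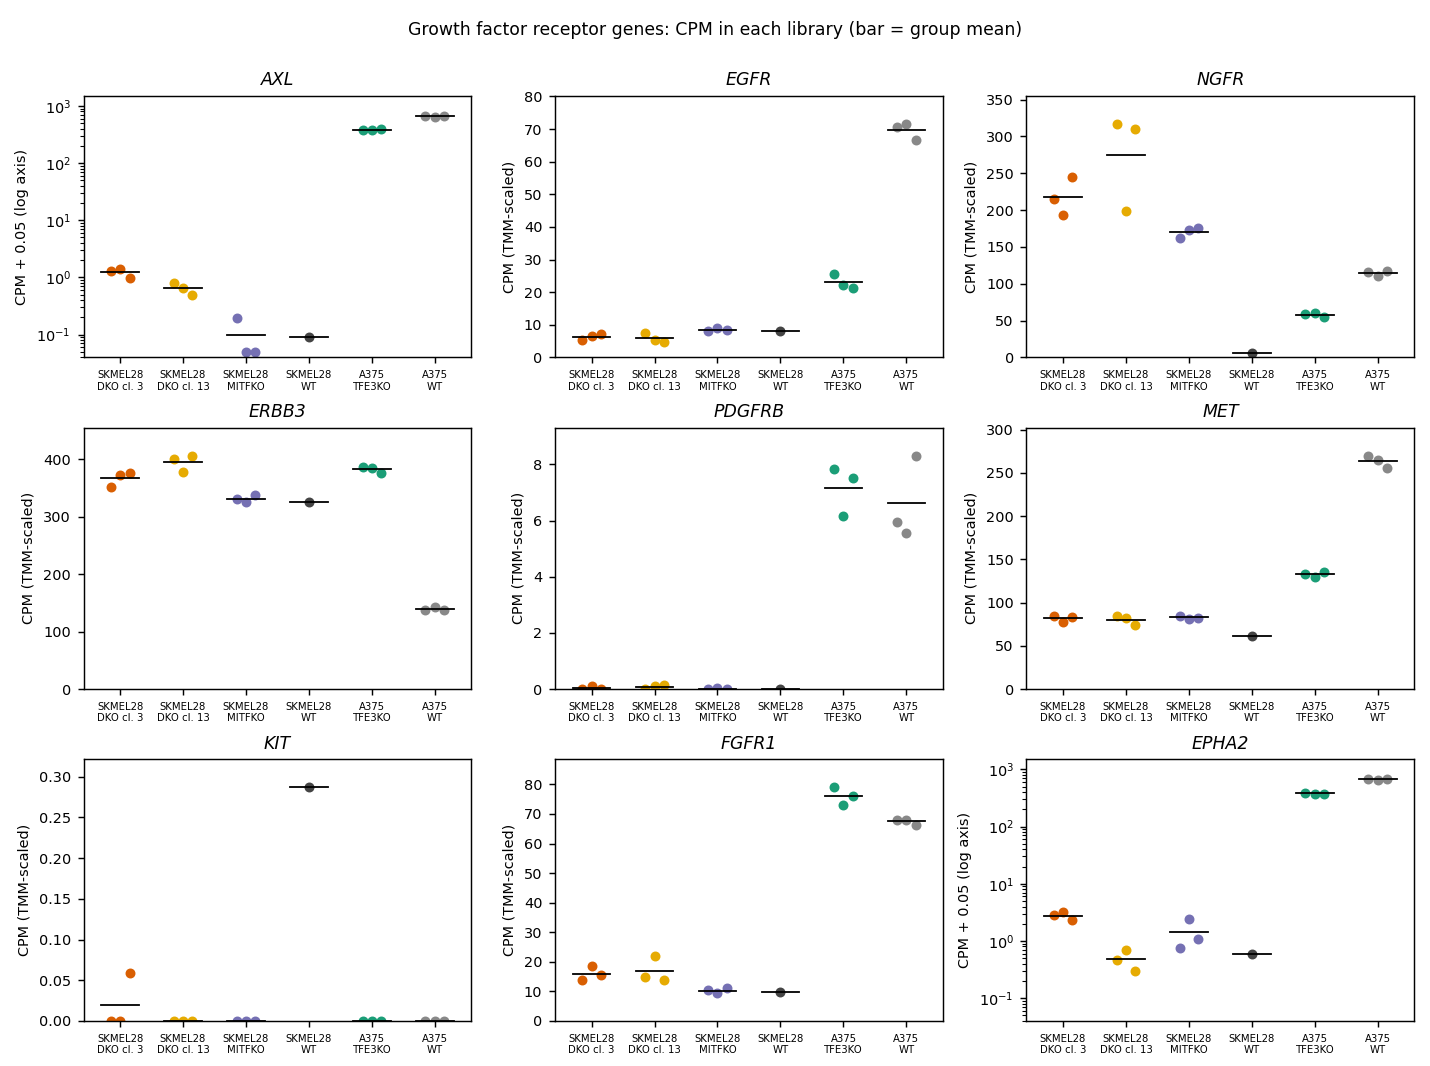
CPM of each receptor gene in every library (points) with the group mean (bar), by group, with a log axis of CPM + 0.05 for AXL and EPHA2 and linear axes for the others. NGFR is at 6.48 CPM in the SKMEL28 wild-type library and at 162 CPM or more in every edited SKMEL28 library, and AXL and EPHA2 are at 374 CPM or more in A375 libraries only.

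NGFR stood out in SKMEL28, where it was 26.3-fold higher in the libraries labelled MITFKO than in wild type. NGFR had 215, 193 and 245 CPM in DKO clone 3, 317, 199 and 310 CPM in DKO clone 13, 162, 173 and 175 CPM in the libraries labelled MITFKO and 6.48 CPM in SKMEL28 wild type. All 9 edited SKMEL28 libraries lay above the wild-type library, and fewer cells with NGFR cannot be told apart from less NGFR RNA per cell in bulk samples. The summed level of 7 melanocyte markers was 5164 to 5418 CPM in the libraries labelled MITFKO and 13905 CPM in wild type. PMEL made up most of it, at 3370 CPM in the libraries labelled MITFKO and 10441 CPM in wild type. Of the 7 markers, 6 fell and 1 rose, and SOX10 was higher, at 843 CPM against 690 CPM in wild type. The part of these markers in the NGFR result was not tested. NGFR rose by 4.71 ± 0.392 on the log2 scale in the libraries labelled MITFKO over wild type (adjusted p = 4.78e-05, edgeR) and by 5.24 ± 0.392 in the DKO clones over wild type (adjusted p = 2.3e-05), each against 1 library. With TFE3 editing NGFR fell in A375 and rose in DKO clone 13. In A375, NGFR fell to 59, 59.8 and 55 CPM in TFE3KO cells, against 116, 110 and 117 CPM in wild type, with no overlap (log2 fold change −0.98 ± 0.0514, adjusted p = 1.98e-22). In DKO clone 13 NGFR was 0.69 ± 0.186 higher on the log2 scale than in the libraries labelled MITFKO (adjusted p = 0.0227), and in clone 3 it was 0.35 ± 0.186 higher without passing the test (adjusted p = 0.195). With only clone 3 and the libraries labelled MITFKO in the fit, clone 3 passed at the same fold change (adjusted p = 4.92e-05). Without the deviating replicate 2 of clone 13 the difference to the libraries labelled MITFKO was 0.89 ± 0.065 (adjusted p = 5.09e-13), and clone 13 also passed the test over clone 3 (0.53 ± 0.065, adjusted p = 9.56e-08). The call in clone 13 was lost without MITFKO replicate 1, 2 or 3 (adjusted p = 0.0736, 0.0594 and 0.0557) and without clone 13 replicate 1 or 3 (adjusted p = 0.0538 and 0.0561). The difference between the lines' TFE3 effects, SKMEL28 minus A375, was 1.51 ± 0.202 for NGFR (adjusted p = 0.000105).

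BDNF, a neurotrophin whose precursor binds NGFR with high affinity, was high in the same groups as NGFR. BDNF had a mean of 9.71 ± 2.49 CPM in DKO clone 3, 9.26 ± 2.18 in clone 13 and 10.1 ± 0.634 in the libraries labelled MITFKO (SD, n = 3 each), against 0.205 CPM in SKMEL28 wild type. It rose by 5.58 ± 0.495 on the log2 scale in the libraries labelled MITFKO over wild type (adjusted p = 3.56e-09, edgeR). In A375 it fell to 3.04 ± 0.22 CPM in TFE3KO cells, against 6.64 ± 0.554 CPM in wild type (adjusted p = 3.5e-06). SORT1 encodes sortilin, a co-receptor of NGFR for pro-neurotrophins, and SORCS1 a related receptor. SORT1 fell to 218 CPM in the libraries labelled MITFKO, against 457 CPM in SKMEL28 wild type, and SORCS1 rose to 76.5 CPM in the libraries labelled MITFKO, against 13 CPM in wild type. In A375, SORCS1 rose by 3.30 ± 0.099 on the log2 scale, with 50.8 CPM in TFE3KO cells and 5.15 CPM in wild type (adjusted p = 8.07e-33), while SORT1 fell to 34.7 CPM in TFE3KO cells, against 52.7 CPM in wild type. In SKMEL28 with TFE3 edited, SORCS1 fell to 60.6 CPM in clone 3 (adjusted p = 0.00777) and was 86.2 CPM in clone 13 (adjusted p = 0.144), against 76.5 CPM in the libraries labelled MITFKO. SORT1 rose to 273 CPM in clone 3 and 271 CPM in clone 13, against 218 CPM in the libraries labelled MITFKO (adjusted p = 0.000252 and 0.000311). MAGED1, an adaptor that binds the intracellular part of NGFR, was 263 CPM in clone 3 and 347 CPM in clone 13, against 180 CPM in the libraries labelled MITFKO, and rose in both (adjusted p = 1.95e-07 and 2.98e-11).

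EGFR and ERBB3, both of the ERBB family, moved in opposite directions when TFE3 was edited in A375. EGFR had 25.5, 22.1 and 21.4 CPM in A375 TFE3KO cells and 70.7, 71.6 and 66.7 CPM in wild type. ERBB3 had 387.0, 385.0 and 375.4 CPM in TFE3KO cells and 138.4, 142.6 and 138.4 CPM in wild type. The groups did not overlap for either gene, with EGFR at 33.3% of wild type and ERBB3 2.74-fold higher in TFE3KO cells. EGFR changed by −1.59 ± 0.07 (adjusted p = 1.32e-25) and ERBB3 by 1.45 ± 0.0355 on the log2 scale (adjusted p = 1.01e-36, edgeR). The summed level of 7 melanocyte markers was 776 to 852 CPM in TFE3KO cells and 493 to 522 CPM in wild type, and 2 of the 4 markers tested rose. Nearly all of the sum was SOX10, a transcription factor of that lineage, with 787 ± 37.5 CPM in TFE3KO cells and 502 ± 14.5 CPM in wild type (SD, n = 3 each). S100B had 18.8 ± 2.22 CPM in TFE3KO cells and 2.84 ± 0.255 CPM in wild type. PMEL averaged 0.644 CPM in TFE3KO cells and 0.83 CPM in wild type, MLANA 0.401 CPM in TFE3KO cells and 0.827 CPM in wild type, and TYR was at 0. MITF fell to 18 ± 0.787 CPM in TFE3KO cells, against 34.7 ± 4.01 CPM in wild type (adjusted p = 3.97e-13). The part of these genes in the ERBB3 result was not tested.

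In SKMEL28 the same 2 genes changed less with TFE3 editing than in A375. ERBB3 was high throughout, with 352.2, 372.6 and 375.3 CPM in DKO clone 3, 399.8, 376.6 and 405.9 CPM in DKO clone 13, 330.4, 324.6 and 338.0 CPM in the libraries labelled MITFKO and 326.1 CPM in wild type. All 6 DKO libraries lay above the 4 others. ERBB3 rose by 0.25 ± 0.0534 in clone 13 (adjusted p = 0.00059) and by 0.15 ± 0.0535 in clone 3 (adjusted p = 0.0336) over the libraries labelled MITFKO, and by 0.22 ± 0.0718 in the DKO clones over wild type (adjusted p = 0.0121). The call in clone 3 was lost when MITFKO replicate 1, 2 or 3 or clone 3 replicate 2 or 3 was left out and with no filter on low counts (adjusted p = 0.0549 to 0.15). Without clone 13 replicate 2, ERBB3 was also called between clone 13 and clone 3 (0.14 ± 0.0486, adjusted p = 0.0258). EGFR had 5.3, 6.49 and 7.21 CPM in clone 3, 7.41, 5.17 and 4.84 CPM in clone 13, 8.1, 8.89 and 8.44 CPM in the libraries labelled MITFKO and 8.2 CPM in wild type. EGFR was thus lower in all 6 DKO libraries than in the 3 libraries labelled MITFKO, by −0.55 ± 0.189 in clone 13 (adjusted p = 0.023) and −0.42 ± 0.189 in clone 3, which did not pass (adjusted p = 0.0899) but did with only the 2 groups in the fit (−0.42, adjusted p = 0.0347). The call in clone 13 was lost without MITFKO replicate 2 or 3 (adjusted p = 0.0788 and 0.0565) and without clone 13 replicate 2 or 3 (adjusted p = 0.0538 and 0.107). Without clone 13 replicate 1, EGFR was called lower in the DKO clones than in wild type (−0.54, adjusted p = 0.0413), whereas with all libraries it was not (−0.44, adjusted p = 0.126). The TFE3 effects of the lines differed for both genes, by 1.11 ± 0.163 for EGFR (adjusted p = 3.22e-06) and −1.24 ± 0.06 for ERBB3 (adjusted p = 7.6e-16), SKMEL28 minus A375.

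**Figure D2:**
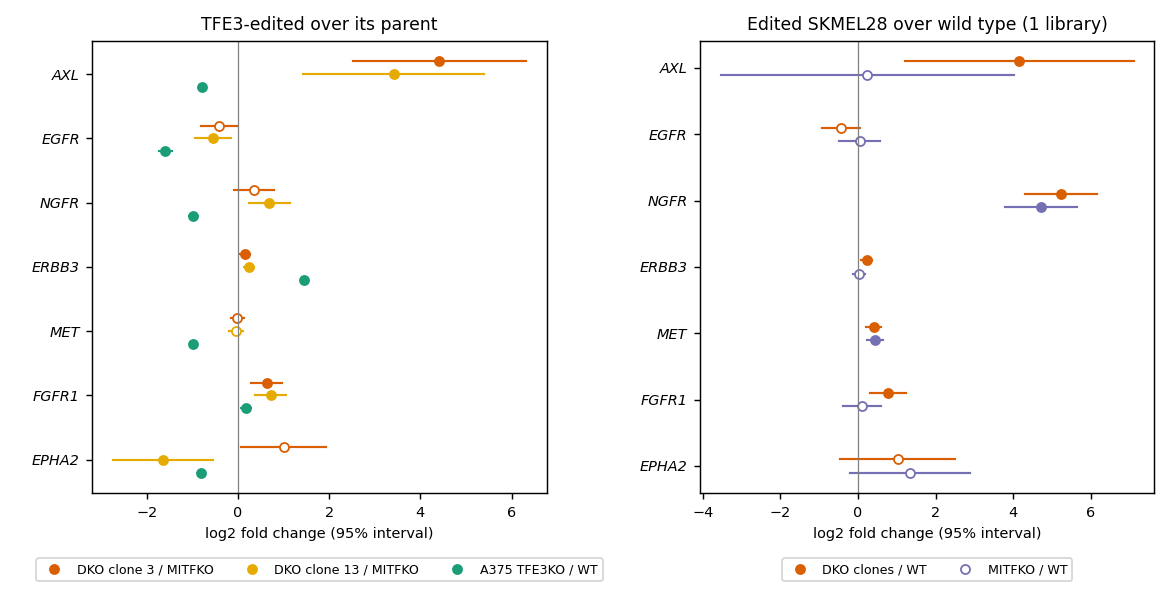
Log2 fold changes of the 7 receptors tested in both lines, with 95% intervals, for cells with TFE3 edited over their parent (left) and for edited SKMEL28 groups over the lone wild-type library (right), with filled points where edgeR's adjusted p was under 0.05. In A375 (left, green) ERBB3 lies at 1.45 and EGFR at −1.59, and NGFR lies at 4.71 and 5.24 over wild type (right).

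TGFA, a ligand of EGFR, rose in A375 TFE3KO cells, in DKO clone 3 and in the libraries labelled MITFKO, each over its parent. TGFA had a mean of 927 ± 41.9 CPM in DKO clone 3, 621 ± 62.1 in clone 13 and 570 ± 6.11 in the libraries labelled MITFKO (SD, n = 3 each), against 29.5 CPM in SKMEL28 wild type. It rose by 4.27 ± 0.121 on the log2 scale in the libraries labelled MITFKO over wild type (adjusted p = 1.8e-17, edgeR) and by a further 0.70 in clone 3 over the libraries labelled MITFKO (adjusted p = 1.83e-08). In A375 TGFA rose to 503 ± 15.6 CPM in TFE3KO cells, against 213 ± 2.54 CPM in wild type (adjusted p = 7.95e-35), in the cells where EGFR fell. NRG1, a ligand of ERBB3, fell to 4.46 ± 0.89 CPM in TFE3KO cells, against 23 ± 2.33 CPM in wild type (log2 fold change −2.36 ± 0.133, adjusted p = 2.95e-21). In SKMEL28, NRG1 was 21.7 ± 3.69 CPM in clone 3, 12.5 ± 1.38 in clone 13, 13.9 ± 1.01 in the libraries labelled MITFKO and 2.3 CPM in wild type, and it rose in clone 3 over the libraries labelled MITFKO (adjusted p = 0.000919). AREG and HBEGF, which bind EGFR, also rose in the libraries labelled MITFKO over wild type, where AREG had 4.84 CPM in the libraries labelled MITFKO and 0.164 CPM in wild type, and HBEGF 25.4 CPM in the libraries labelled MITFKO and 14.7 CPM in wild type. ERBB2, the kinase partner of ERBB3, named for that role, was 57.3 ± 1.94 CPM in A375 TFE3KO cells and 52.5 ± 1 CPM in wild type (adjusted p = 0.0754).

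AXL, a TAM-family receptor of GAS6, was abundant in A375 and near 0 in SKMEL28. With TFE3 editing it fell in A375, while both SKMEL28 clones had more AXL reads, though few, than the libraries labelled MITFKO. AXL had 376, 374 and 394 CPM in A375 TFE3KO cells and 669, 634 and 668 CPM in wild type. The groups did not overlap, and AXL fell by 0.78 ± 0.0318 on the log2 scale (adjusted p = 3.64e-27, edgeR), to 58.1% of wild type. In SKMEL28 the counts were few: 62 reads over the 3 libraries of DKO clone 3, 34 over those of clone 13, 3 over those labelled MITFKO and 1 in wild type. As CPM, AXL was 1.27, 1.37 and 0.945 in clone 3, 0.752, 0.597 and 0.44 in clone 13, 0.143, 0 and 0 in the libraries labelled MITFKO and 0.041 in wild type. Every DKO library lay above every other SKMEL28 library. AXL passed the filter on low counts only through the DKO libraries, where it is higher, and was not among the genes tested when only clone 13 and the libraries labelled MITFKO entered, so it could enter the SKMEL28 counts of calls only as higher in DKO cells. The ratio of counts to the libraries labelled MITFKO was 23.9 in clone 3 (95% counting interval 7.8 to 119) and 11.7 in clone 13 (3.69 to 59.7). EdgeR's own log2 fold changes were 4.42 in clone 3 (adjusted p = 0.00061) and 3.42 in clone 13 (adjusted p = 0.00627). All 3 MITFKO reads came from replicate 1, and without it the fitted log2 fold change was 7.52 in place of 4.42 in clone 3 and 6.53 in place of 3.42 in clone 13, both fitted against a group at 0 and no bound. Over the wild-type read the DKO clones had a ratio of counts of 21.3 (3.74 to 851), and edgeR's log2 fold change was 4.16 (adjusted p = 0.0171). No molecular identifiers are mentioned for these reads, so the intervals, and the floor used below, cover counting error only. AXL in clone 3 was at 1.19 ± 0.221 CPM, beside 381 ± 10.8 CPM in A375 TFE3KO cells (SD, n = 3 each). The fitted difference of the TFE3 effects was 4.70 (adjusted p = 1.16e-09) and rests on the 3 MITFKO reads, and it was 7.90 without MITFKO replicate 1.

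In SKMEL28 the summed level of markers of fibroblasts, a cell type rich in AXL, was higher in the DKO clones, where AXL was higher. Of the 4 markers tested over the libraries labelled MITFKO, 2 rose in clone 3 and 1 in clone 13. The summed level of 6 fibroblast markers was 102 to 111 CPM in clone 3, 76.5 to 89.2 in clone 13, 52.1 to 62.3 in the libraries labelled MITFKO and 45.7 in wild type. Of the 6 markers, 3 passed 1 CPM in the DKO and MITFKO groups and 2 in wild type. LUM made up most of the sum, at 95.2 CPM in clone 3, 74.1 in clone 13, 49.7 in the libraries labelled MITFKO and 40.8 in wild type, while COL3A1 and THY1 were at 0.144 CPM or less and COL1A1 at 0.824 CPM or less in every SKMEL28 group. The part of these markers in the result was not tested. GAS6, the main AXL ligand, had 14.3 ± 1.57 CPM in A375 TFE3KO cells and 20.5 ± 1.69 CPM in wild type (SD, n = 3 each) and fell (adjusted p = 4.23e-05, edgeR). It rose in the libraries labelled MITFKO over SKMEL28 wild type, to 5.33 ± 0.557 CPM against 0.984 CPM (adjusted p = 0.000219). PROS1, which encodes protein S, another ligand of TAM receptors, fell to 38.3 CPM in the libraries labelled MITFKO, against 72.9 CPM in wild type, and rose to 63.1 ± 8.17 CPM in clone 13 (adjusted p = 8.06e-07 over the libraries labelled MITFKO). Of the other TAM receptors, MERTK fell to 22.3 CPM in the libraries labelled MITFKO, against 41.3 CPM in wild type, and to 6.3 ± 1.17 CPM in clone 13 (adjusted p = 7.97e-10 over the libraries labelled MITFKO). In A375, MERTK was at 0.0637 CPM in TFE3KO cells and 0.0156 CPM in wild type. TYRO3, named to complete that family, lay between 44.8 and 89.4 CPM in every library.

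EPHA2, the ephrin-A receptor, was high in A375 and at a few CPM at most in SKMEL28. EPHA2 had 394, 376 and 374 CPM in A375 TFE3KO cells and 678, 665 and 674 CPM in wild type. The groups did not overlap, and EPHA2 fell by 0.81 ± 0.0307 on the log2 scale (adjusted p = 1.63e-28, edgeR), to 56.8% of wild type, close to the 58.1% of AXL. Its ligand EFNA1 fell with it, to 11.9 ± 0.583 CPM in TFE3KO cells against 28.9 ± 1.27 CPM in wild type (SD, n = 3 each, adjusted p = 1.99e-16). Keratinocytes are rich in EPHA2, and the summed level of 6 keratinocyte markers overlapped between the groups, at 64.5 to 80.1 CPM in TFE3KO cells and 64.7 to 68.3 CPM in wild type, with DSG3 at 0. KRT10 made up most of it, at 48.7 CPM in TFE3KO cells and 48.5 CPM in wild type. KRT14 did not overlap, at 21.6 to 24.8 CPM in TFE3KO cells and 17.1 to 18.2 CPM in wild type. Of the 2 markers tested, 1 rose. The part of these markers in the EPHA2 result was not tested. In SKMEL28 the clones went apart. EPHA2 had 2.82, 3.13 and 2.24 CPM in DKO clone 3, 0.405, 0.646 and 0.244 CPM in DKO clone 13, 0.714, 2.38 and 1.02 CPM in the libraries labelled MITFKO and 0.533 CPM in wild type. The clones did not overlap with each other, and clone 13 was lower than clone 3 by −2.64 ± 0.516 (adjusted p = 0.000527). With all libraries EPHA2 was the only receptor called between the clones, and it was called again without clone 13 replicate 2 (−3.07 ± 0.589, adjusted p = 6.58e-05). Against the libraries labelled MITFKO EPHA2 fell in clone 13 (−1.65 ± 0.53, adjusted p = 0.016) and was 1.00 ± 0.455 higher in clone 3 without passing (adjusted p = 0.0932). Both values turned on MITFKO replicate 2, the highest of its group at 46 reads. Without it clone 3 passed (1.65, adjusted p = 0.0238) and clone 13 did not (−0.99, adjusted p = 0.198). Clone 13 also did not pass without its own replicate 3 (−1.34, adjusted p = 0.0674). The lines' TFE3 effects were not called different with both clones (0.52 ± 0.336, adjusted p = 0.255). Without MITFKO replicate 2 that difference was 1.16 (adjusted p = 0.000765), with clone 3 alone 1.84 (adjusted p = 0.000105) and with clone 13 alone −0.80 (adjusted p = 0.176).

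MET, the receptor of hepatocyte growth factor, followed EGFR, AXL and EPHA2 downward in A375. MET had 133, 130 and 136 CPM in A375 TFE3KO cells and 270, 265 and 256 CPM in wild type. It was at 50.4% of wild type with no overlap (log2 fold change −0.99 ± 0.0379, adjusted p = 3.69e-28, edgeR). In SKMEL28 MET had 84.5, 77.4 and 83.7 CPM in DKO clone 3, 84.5, 82.7 and 73.6 CPM in DKO clone 13, 85, 80.8 and 82.8 CPM in the libraries labelled MITFKO and 61.2 CPM in wild type. The 3 edited groups overlapped, and all 9 libraries lay above the wild-type library. MET rose by 0.44 ± 0.0992 in the libraries labelled MITFKO over wild type (adjusted p = 0.000833) and by 0.41 ± 0.0935 in the DKO clones over wild type (adjusted p = 0.000851). Both set 1 wild-type library, with a spread taken from the other groups, against the edited ones. Over the libraries labelled MITFKO its log2 fold change was −0.02 in clone 3 (95% interval −0.16 to 0.13) and −0.05 in clone 13 (−0.19 to 0.10). The lines' TFE3 effects on MET differed by 0.97 ± 0.0736 (adjusted p = 1.93e-11). HGF, its ligand, averaged 0.102 CPM in A375 TFE3KO cells and 0.0778 CPM in wild type, and 0.0197 CPM or less in every SKMEL28 group.

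FGFR1, a receptor of fibroblast growth factors, rose with TFE3 editing in A375 and in both DKO clones, as ERBB3 did. FGFR1 had 13.7, 18.4 and 15.4 CPM in DKO clone 3, 14.8, 22 and 13.9 CPM in DKO clone 13, 10.4, 9.36 and 11 CPM in the libraries labelled MITFKO and 9.6 CPM in wild type. All 6 DKO libraries lay above the other 4, and FGFR1 rose by 0.63 ± 0.166 in clone 3 (adjusted p = 0.00535, edgeR) and by 0.72 ± 0.165 in clone 13 over the libraries labelled MITFKO (adjusted p = 0.00128). Over wild type it rose by 0.77 ± 0.226 in the DKO clones (adjusted p = 0.00652). Replicate 2 of clone 13 was the highest, and without it the rise in clone 13 was 0.48 ± 0.15 (adjusted p = 0.00744). In A375 FGFR1 had 79, 73 and 76.1 CPM in TFE3KO cells and 68, 68.1 and 66.4 CPM in wild type. The groups did not overlap, but the difference was small, at 0.17 ± 0.0539 (adjusted p = 0.00677), and the call was lost without TFE3KO replicate 1 (0.15, adjusted p = 0.0514). The lines' effects differed by 0.51 ± 0.164 (adjusted p = 0.0172), lost without MITFKO replicate 2 (0.44, adjusted p = 0.0637). LETM2 overlaps FGFR1 in the annotation and had 29 to 153 reads per library, and the sources used here do not state whether strand was used in counting.

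Ligands of FGFR1 changed in both lines. FGF2, basic fibroblast growth factor, fell to 17.6 ± 1.87 CPM in A375 TFE3KO cells, against 45 ± 2.41 CPM in wild type (adjusted p = 7.67e-20, edgeR). FGF2 also fell to 7.36 ± 1.33 CPM in clone 3 and 7.97 ± 0.12 CPM in clone 13, against 14.8 ± 1.39 CPM in the libraries labelled MITFKO (SD, n = 3 each, adjusted p = 2.76e-05 and 6.76e-05). FGF1 split the clones, at 11.2 ± 1.06 CPM in clone 3 and 47 ± 6.6 CPM in clone 13, against 20.7 ± 0.931 CPM in the libraries labelled MITFKO. FGF1 fell in clone 3 (adjusted p = 6.69e-06) and rose in clone 13 (adjusted p = 2.37e-08).

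PDGFRB and KIT were near 0 in most libraries. PDGFRB, a receptor of platelet-derived growth factors, had 7.82, 6.16 and 7.5 CPM in A375 TFE3KO cells and 5.94, 5.57 and 8.31 CPM in wild type, which overlapped (log2 fold change 0.12 ± 0.167, adjusted p = 0.593, edgeR). In SKMEL28 it had 2 reads in all of clone 3, 5 in clone 13, 1 in the libraries labelled MITFKO and 0 in wild type. PDGFA, whose product binds PDGFRA above all, fell to 10.5 ± 1.74 CPM in clone 3 and 6.69 ± 0.876 CPM in clone 13, against 22.2 ± 0.597 CPM in the libraries labelled MITFKO, and to 5.2 ± 0.395 CPM in A375 TFE3KO cells, against 11.5 ± 0.428 CPM in wild type (adjusted p = 3.9e-06, 5.65e-09 and 3.78e-09). PDGFB, the classical PDGFRB ligand, was 1.15 ± 0.222 CPM in A375 TFE3KO cells and 4.92 ± 0.708 CPM in wild type, and fell (adjusted p = 5.44e-09). KIT, the receptor of stem cell factor in melanocytes, had 1 read in clone 3 and 0 in clone 13 and the libraries labelled MITFKO, against 7 reads in the SKMEL28 wild-type library. With a floor of 3 reads summed over the group, KIT was 5.73-fold lower in the libraries labelled MITFKO than in wild type. That value takes the 7 reads of 1 wild-type library as exact, so it is no lower bound. A375 had 0 KIT reads in all 6 libraries. KITLG, which encodes stem cell factor, rose to 16.3 ± 1.35 CPM in clone 3, against 10.5 ± 0.956 CPM in the libraries labelled MITFKO (SD, n = 3 each, adjusted p = 0.0234).

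**Figure D3:**
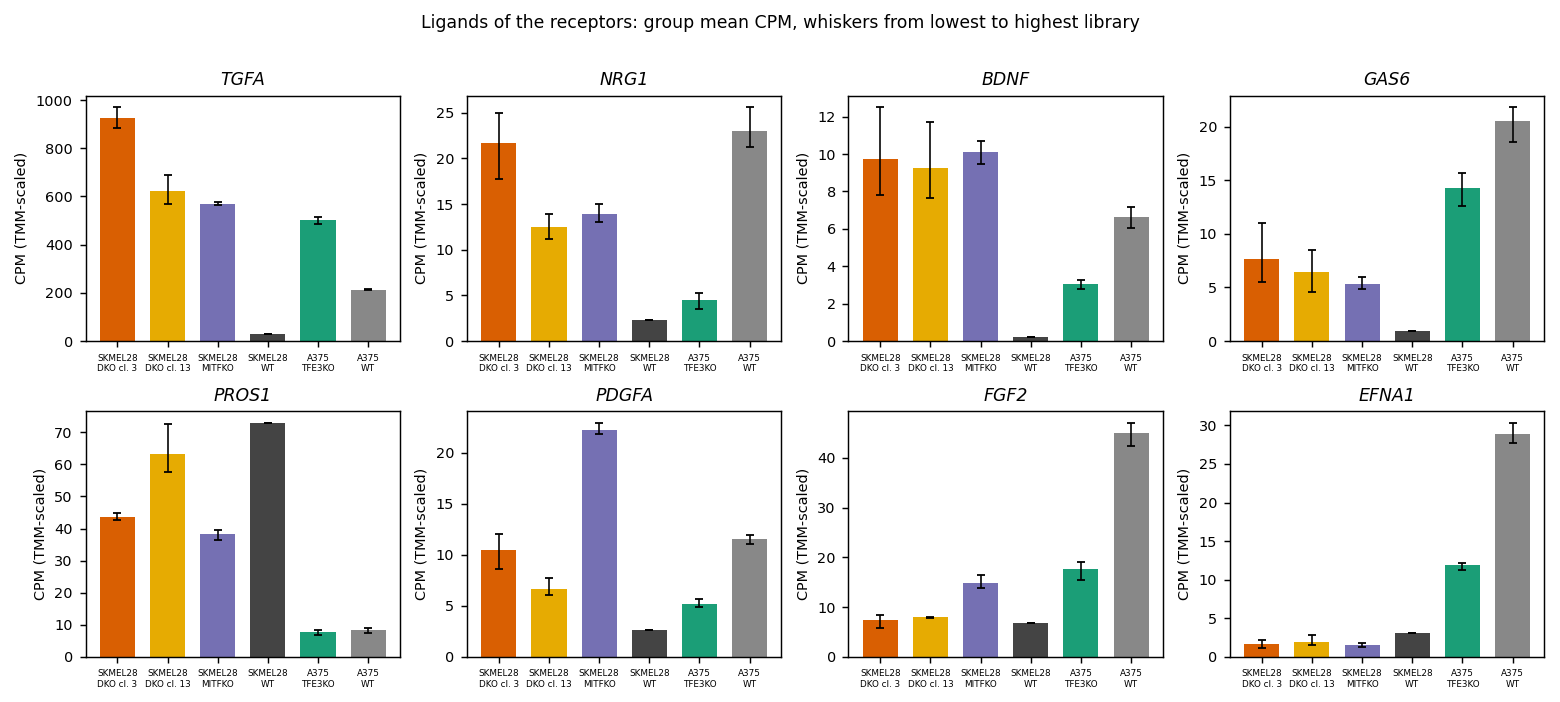
Group mean CPM of 8 ligand genes of the receptors (bars, from 0), with whiskers from the lowest to the highest library and no whiskers for the lone SKMEL28 wild-type library. TGFA is at 570 CPM or more in every edited SKMEL28 group against 29.5 CPM in wild type, and NRG1, FGF2 and EFNA1 are lower in A375 TFE3KO cells than in wild type.

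Between the wild-type lines 67.6% of all genes were called, 34.1% higher and 33.6% lower in A375, and medium and line cannot be told apart. SKMEL28 gave 1 library, so its spread was taken from the other groups. AXL, at 1 read in SKMEL28 wild type, and PDGFRB, at 0, did not pass the filter through that library. PDGFRB passed only through A375, where it was high, and AXL could pass through A375 or DKO libraries. Both could thus be called only as higher in A375 and are not counted. Of the other 6 receptors tested, 5 were higher in A375 wild type than in SKMEL28 wild type and ERBB3 was lower (−1.22 ± 0.0617, adjusted p = 2.52e-17, edgeR). EPHA2 was higher by 10.28 ± 0.287, NGFR by 4.14 ± 0.32, EGFR by 3.09 ± 0.192, FGFR1 by 2.81 ± 0.197 and MET by 2.11 ± 0.0893 on the log2 scale (adjusted p = 2.33e-07 or below for each). For AXL the ratio was 16017 on 1 SKMEL28 read (95% counting interval 2875 to 632661), and PDGFRB was at least 53.6-fold higher in A375. AXL, EGFR, EPHA2 and MET had their highest level in A375 wild type and their next in A375 TFE3KO cells, with no overlap. Below these, neighbours that overlapped were MITFKO and wild type for AXL and EGFR, clones 3 and 13 for EGFR, clone 3 and MITFKO as well as wild type and clone 13 for EPHA2, and MITFKO, clone 3 and clone 13 for MET. FGFR1 was highest in A375 TFE3KO cells and then A375 wild type, and lower down clones 13 and 3 overlapped, as did MITFKO and wild type. PDGFRB overlapped between the A375 groups and among all SKMEL28 groups. For NGFR the order was clone 13, clone 3, MITFKO, A375 wild type, A375 TFE3KO and SKMEL28 wild type, where clones 13 and 3 overlapped and no other neighbours did. For ERBB3 the ranges of clone 13 and A375 TFE3KO overlapped at the top, those of the libraries labelled MITFKO and SKMEL28 wild type overlapped further down, and A375 wild type was lowest.

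Levels of different genes were set against each other per kilobase of annotated exon. Among the 9 receptors and 46 other receptor tyrosine kinases, NGFR ranked first in clone 3, clone 13 and the libraries labelled MITFKO, at 59.2, 74.9 and 46.3 CPM per kilobase, and 14th in SKMEL28 wild type at 1.76. ERBB3 ranked second in all 4 SKMEL28 groups, at 43.9 to 53 CPM per kilobase. In A375, EPHA2 and AXL ranked first and second in TFE3KO cells, at 96.2 and 77.9 CPM per kilobase, and in wild type, at 170 and 134. ERBB3 ranked 3rd in TFE3KO cells at 51.5 CPM per kilobase and 7th in wild type at 18.8. MET ranked 6th in A375 TFE3KO cells and 4th in wild type, and 9th in every edited SKMEL28 group.

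Of 30 other receptor tyrosine kinases tested in A375, 17 rose and 6 fell in TFE3KO cells, with a median log2 fold change of 0.32, where 43.3% of all genes were called. FLT1, a VEGF receptor, rose to 112 CPM in TFE3KO cells, against 13.5 CPM in wild type (3.05 ± 0.0677, adjusted p = 1.53e-38, edgeR). In the same TFE3KO cells EPHB3 rose to 31.6 CPM, against 7.48 CPM in wild type, and FGFR3 to 17.4 CPM, against 5.62 CPM in wild type. TIE1 fell to 1.63 CPM in TFE3KO cells, against 6.82 CPM in wild type. FLT1 also rose in both DKO clones, to 12.5 CPM in clone 3 and 20.3 CPM in clone 13, against 4.51 CPM in the libraries labelled MITFKO (adjusted p = 1.2e-05 and 4.38e-08). In SKMEL28, 6 of 29 rose and 6 fell in clone 3, and 7 rose and 6 fell in clone 13, over the libraries labelled MITFKO, near the 35.9% and 40.7% of all genes called there. Over wild type, 13 of 29 rose and 3 fell in the libraries labelled MITFKO, with a median of 1.08, where 48.6% of all genes were called. The Eph receptor genes EPHB1 and EPHB3 rose to 6.36 and 29.9 CPM in the libraries labelled MITFKO, against 0.287 and 2.62 CPM in wild type, and EPHA5 fell to 0.321 CPM in the libraries labelled MITFKO, against 10.5 CPM in wild type.

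**Figure D4:**
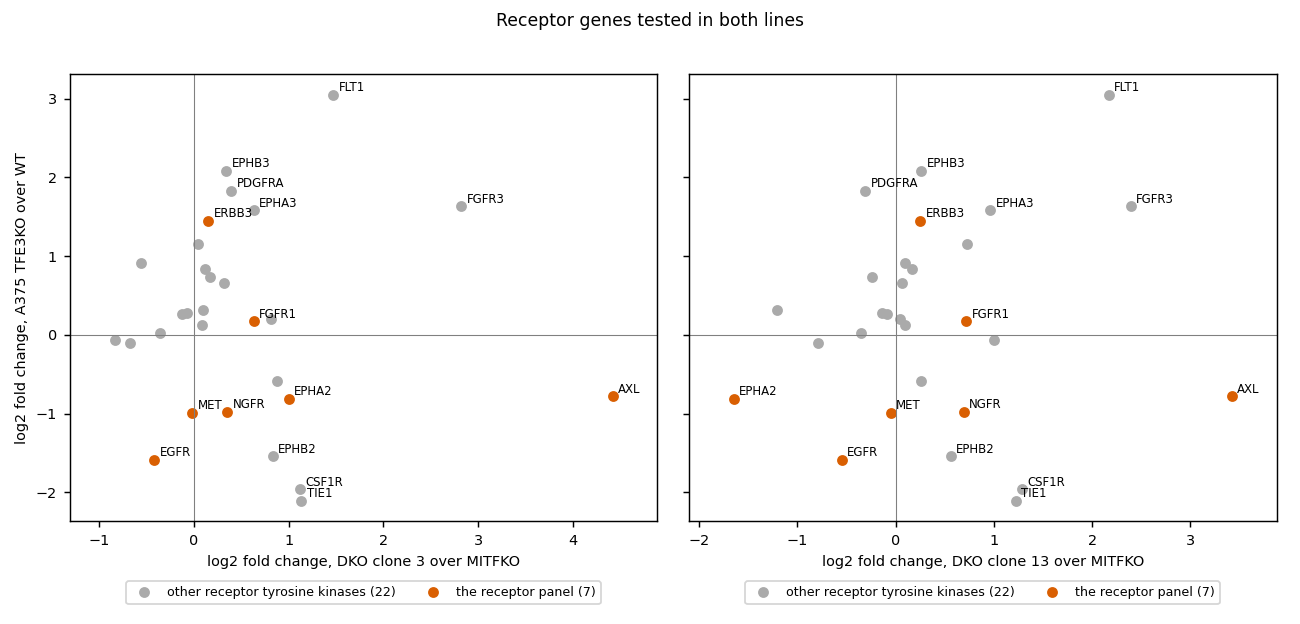
Log2 fold change with TFE3 editing in A375 (vertical axis) against that in DKO clone 3 (left) or DKO clone 13 (right) over the libraries labelled MITFKO (horizontal axis), for the 7 receptors described here (orange) and 22 other receptor tyrosine kinases (grey) tested in both lines. AXL lies at 4.42 and 3.42 on the horizontal axes and at −0.78 on the vertical one, and FLT1 at 3.05 on the vertical axis.

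The genes around the receptors were counted by list. Of the ligands, 3 of 22 tested rose and 10 fell in A375 TFE3KO cells (median log2 fold change −0.24), where 43.3% of all genes were called. In clone 3, 5 of 25 rose and 5 fell, and in clone 13, 4 rose and 6 fell. These are near the 35.9% and 40.7% of all genes called there and are no result about the ligands. In the libraries labelled MITFKO over wild type 13 of 25 rose and 2 fell (median 0.79), where 48.6% of all genes were called. Of 26 adaptors and effectors tested in SKMEL28, 3 rose and 13 fell in clone 3 (median −0.38) and 3 rose and 9 fell in clone 13 (median −0.15). These included STAT5A, a transcription factor phosphorylated by receptor kinases, which fell to 2.18 CPM in clone 3 and 2.04 CPM in clone 13, against 8.22 CPM in the libraries labelled MITFKO. PIK3CA, the catalytic subunit of PI3-kinase, fell to 27.1 CPM in clone 3, against 46.8 CPM in the libraries labelled MITFKO (adjusted p = 2.65e-06, edgeR), and PTPN11, the phosphatase SHP2, fell to 201 CPM in clone 13, against 358 CPM in the libraries labelled MITFKO (adjusted p = 1.02e-09). Of 12 co-receptors and partners, 3 rose and 6 fell in A375 TFE3KO cells, among them SDC4, a heparan sulphate proteoglycan, at 174 CPM in TFE3KO cells and 405 CPM in wild type. CD44, a partner of MET, fell to 698 CPM in TFE3KO cells, against 1162 CPM in wild type. NRP1, which binds several growth factors, rose to 137 CPM in the libraries labelled MITFKO, against 0.656 CPM in wild type (7.69 ± 0.161, adjusted p = 2.57e-19). Of 19 inhibitors and sheddases, 7 rose and 5 fell in A375 TFE3KO cells, among them the EGFR inhibitor ERRFI1, which rose to 343 CPM in TFE3KO cells, against 187 CPM in wild type. The ubiquitin ligase CBL fell to 53.8 CPM in clone 3 and 59.9 CPM in clone 13, against 92.8 CPM in the libraries labelled MITFKO, and it rose in the libraries labelled MITFKO over the 34.2 CPM of wild type. Of 13 lineage and state transcription factors, TFE3 itself included, 4 rose and 6 fell in A375 TFE3KO cells. SOX9 fell to 1.79 CPM in TFE3KO cells, against 9.65 CPM in wild type, and JUN, an AP-1 subunit, fell to 23 CPM in TFE3KO cells, against 49.6 CPM in wild type. FOSL1, another AP-1 subunit, and ZEB1 rose to 194 and 28.2 CPM in the libraries labelled MITFKO, against 33.9 and 2.87 CPM in SKMEL28 wild type. For the other lists too, the shares of all genes called were 43.3% in A375 TFE3KO cells, 35.9% in clone 3 and 40.7% in clone 13. The shares by direction are given above for each comparison.

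Genes with the most similar pattern were found from the root mean square difference of centred log2(CPM + 0.5) over the 6 group means, as a description with no test. For NGFR these were MAGI2-AS3, BDNF and ADAM19, at 0.405, 0.46 and 0.523 on the log2 scale. For AXL they were MMP2, IGFBP4 and ANPEP (0.506 to 0.604), and for EPHA2 they were KRT80, TGM2 and CDH13 (0.484 to 0.599). EGFR was closest to PGM5P2, PTPRB and HMGA2 (0.136 to 0.236), ERBB3 to IRX5, GAREM1 and RHBDF1 (0.175 to 0.199), MET to IRF1, LDOC1 and SLC1A3 (0.0917 to 0.143), and FGFR1 to FRMPD4, DNAJC6 and KRT18 (0.138 to 0.195). PDGFRB was closest to NMU, ZNF860 and MPV17L (0.0675 to 0.105). KIT was nearly flat near 0, and its nearest genes, LRRC40, RBM45 and RIOK2, are ones that varied little between groups.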

How the data were processed

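Total RNA from 16 cultures was sequenced in bulk. The authors deposited raw read counts per gene symbol for each library; STAR, featureCounts, DESeq2 and hg19 are named per the submitters' processing notes, while versions, annotation and use of strand were not given in the sources used here. The 9 receptors and all gene lists were chosen with earlier results of these data known. From the deposited counts, genes were filtered by group with edgeR 4.0.16 (limma 3.58.1, R 4.3.3) and scaled with TMM factors. The robust quasi-likelihood test was run in 10 SKMEL28 libraries, 6 A375 libraries or 15 of both for the difference of TFE3 effects. For the wild-type lines against each other all 16 libraries entered the fit. Benjamini-Hochberg adjustment was made over all genes tested, with a threshold of 0.05. Totals of 17320855 to 31269126 reads limit precision mainly for AXL, EPHA2, PDGFRB and KIT in SKMEL28. The text names the 9 receptors and their ligands. Per list and comparison it also names up to 4 called genes with the largest log2 fold change and at least 5 CPM in the higher group. Some genes were named outside that rule, among them ERBB2, TYRO3, SOX10 and cell type markers. In some comparisons so were SORT1, SORCS1, MERTK and MITF. Fold changes against a group at 0 use a floor of 3 reads over the group. Exon lengths came from GENCODE 29, without coordinates of the authors' build. Motifs were searched in the 250 bases before each start, a shorter window than planned, and planned protein motifs were not searched. Alternatives were DESeq2 1.42.0 and its size factors, no filter, a filter at 1 CPM, leaving out each replicate, only the groups compared, a replicate block, and either clone alone.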

Additional observations from a re-analysis of the deposited data

Results flagged for a closer look

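The effect of TFE3 editing differed between the lines, by an interaction test in edgeR, for 6 of the 8 receptors tested, as SKMEL28 (mean of both DKO clones over the libraries labelled MITFKO) minus A375 (TFE3KO over wild type) on the log2 scale. The difference was 4.70 for AXL, 1.11 for EGFR, 1.51 for NGFR, 0.97 for MET and 0.51 for FGFR1, and −1.24 for ERBB3. The AXL value rests on 3 reads in the libraries labelled MITFKO. The FGFR1 call was lost without MITFKO replicate 2 (adjusted p = 0.0637, edgeR). The SKMEL28 effects share an MITF edit, and line, medium and MITF status cannot be told apart in this contrast. The 2 DKO clones, made in the same parent line, differed in EPHA2 by −2.64, clone 13 over clone 3.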

How the results depend on the processing

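Of 706 recomputed receptor values, 669 kept their direction and their side of the threshold, 19 lost and 10 gained a call, and 8 changed sign; all 96 counts over all genes stayed within 1.5 times. The number of receptors called was 6 in place of 3 for clone 3 over the libraries labelled MITFKO when only the groups compared entered the fit. Leaving out each replicate, it was 3 to 5 in place of 6 for clone 13 over the libraries labelled MITFKO and 1 to 3 in place of 1 for clone 13 over clone 3. Sign changes under such omissions were of values that passed no test. AXL in the libraries labelled MITFKO over wild type ranged from −2.87 to 0.75. MET ranged from −0.04 to 0.02 in clone 3 over the libraries labelled MITFKO, −0.08 to 0.02 in clone 13 over the libraries labelled MITFKO and −0.07 to 0.04 in clone 13 over clone 3. FGFR1 ranged from −0.14 to 0.23 in clone 13 over clone 3, and the PDGFRB difference of TFE3 effects from −0.06 to 3.29. That difference for EPHA2 was −0.80 with clone 13 alone. The causes were not tested. Same-numbered samples deviated together with correlations of only −0.0292 to 0.084, so they share a number and not a pairing. With a replicate block 4 receptors were called in clone 3 and 6 in clone 13 over the libraries labelled MITFKO, 1 between clones, 7 in A375 and 6 for the difference of TFE3 effects. No paired analysis was possible because the wild-type SKMEL28 library has a number that no other group shares, for comparisons with it. The filter at 1 CPM left out receptors with few reads. Depth limits AXL, KIT and PDGFRB in SKMEL28.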
